A study of Mus musculus with 9 samples.

Results

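Whole eyeballs of alga-fed, injected mice (T.chuii, 3 libraries) were compared with eyeballs of uninjected mice (CON, 3 libraries), which together made up 6 of the 9 RNA-seq libraries of the study. The libraries were chosen by their titles alone, and changes were measured over all genes. Both groups were wild-type females of the albino inbred strain BALB/C that entered the experiment at 6 weeks of age and were treated for 2 weeks, with tissue taken at postnatal day 56. CON mice received no injection and were given water. T.chuii mice were injected intraperitoneally with scopolamine and fed 300 mg/kg of Tetraselmis chuii. The remaining 3 libraries (DES), from mice injected with scopolamine and given water, entered the fit to help estimate the spread between libraries. CON and T.chuii differ by the drug, the injection and the alga together, so the effects of these 3 cannot be told apart in this comparison. Whether each library stands for its own animal is not stated in the labels, and p-values therefore measure the spread between these libraries.

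The eyeball joins tissues that share few abundant transcripts. The lens is packed with crystallins, the retina is dominated by rod photoreceptors, and the corneal surface is a stratified epithelium rich in keratin 12. Extraocular muscle, orbital fat and optic nerve lie against the globe and can come away with it. Scopolamine blocks muscarinic acetylcholine receptors, through which parasympathetic nerves drive tear secretion, and is used to induce dry eye. Tetraselmis chuii is a green marine microalga.

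Library totals lay between 39098480 and 64574545 counted reads. Levels are given as CPM, the read count over a library size scaled by trimmed means and set to 1000000, in the order of libraries 1, 2 and 3. Libraries CON 2 and T.chuii 1 stood apart in tissue makeup: their ratios of corneal epithelium to rod reads were 3.40 and 3.31, against 0.306 to 0.746 in the other 4. The eyeball label was checked against marker genes of its parts. Rod and corneal genes were abundant in all 6 libraries, with 4.65%, 2.11% and 4.73% of reads in CON and 1.23%, 4.48% and 5.22% in T.chuii held by 21 rod genes. Lens markers were close to absent from the 3 CON libraries, where 12 lens fibre genes held 0.0298%, 0.0227% and 0.0264% of reads, against 0.113%, 0.487% and 0.0632% in T.chuii. Most of those CON reads came from Tdrd7 (8322, 10528 and 10188 reads) and Prox1 (1940, 1185 and 2833 reads). Both are also expressed elsewhere in the eye and add to the T.chuii shares as well. In bulk tissue, fewer cells of a type and less RNA per cell cannot be told apart.

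No gene passed the test between T.chuii and CON once p-values were adjusted over the 21287 genes tested (limma-voom with Benjamini-Hochberg adjustment, all 9 libraries in the fit). The number called was 0, which is 0.0% of genes tested, and the smallest adjusted p was 0.98. At an unadjusted p under 0.05 there were 912 genes, 671 with higher and 241 with lower means in T.chuii, and limma-trend on FPKM values likewise called 0, with 1083 at that level. The T.chuii values lay wholly above the CON values for 1161 genes (5.45%) and wholly below them for 632 (2.97%). That split turned with the scaling: by the deposited FPKM values 766 genes (3.6%) lay above and 1682 (7.9%) below, and by plain library totals 971 and 1161. The share lying above thus moved from 64.8% to 31.3% and 45.5%. The median log2 change over all genes was -0.04 in the main fit.

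When the fit was limited to the 6 T.chuii and CON libraries, limma-voom called 12 genes (0.0564% of those tested), all higher in T.chuii. They included Cryaa, Cryab, Cryba4, Crybb1, Crybb3, Gja3, Grifin, Pitx3, Lix1, R3hdml and the pseudogene Gm11578, with adjusted p between 0.0136 and 0.0412. Of these, Pitx3 had 7, 4 and 5 reads in the CON libraries and passed the filter on low counts only through the other groups. The 9-library and 6-library fits gave the called genes nearly the same log2 change and different standard errors. For Cryaa the 9-library value was 14.12 ± 2.12 and the 6-library value 14.13 ± 1.30. The DES libraries, at 28022, 154 and 20138 CPM of Cryaa, were far apart from each other. The number of genes called by the 6-library fit was 6, 1 and 1 without CON 1, CON 2 and CON 3, and 2, 11 and 40 without T.chuii 1, T.chuii 2 and T.chuii 3. Without both CON 2 and T.chuii 1, an alternative chosen after seeing the data, it was 14 (0.0658% of those tested), 9 higher (0.0423%) and 5 lower (0.0235%) in T.chuii, of which 6 were among the 12. The other 8 were AA386476, Crhbp and Nnat, higher in T.chuii, and Fos, Junb, Dusp1, Ccn1 and Smoc2, lower in T.chuii.

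**Figure D1:**
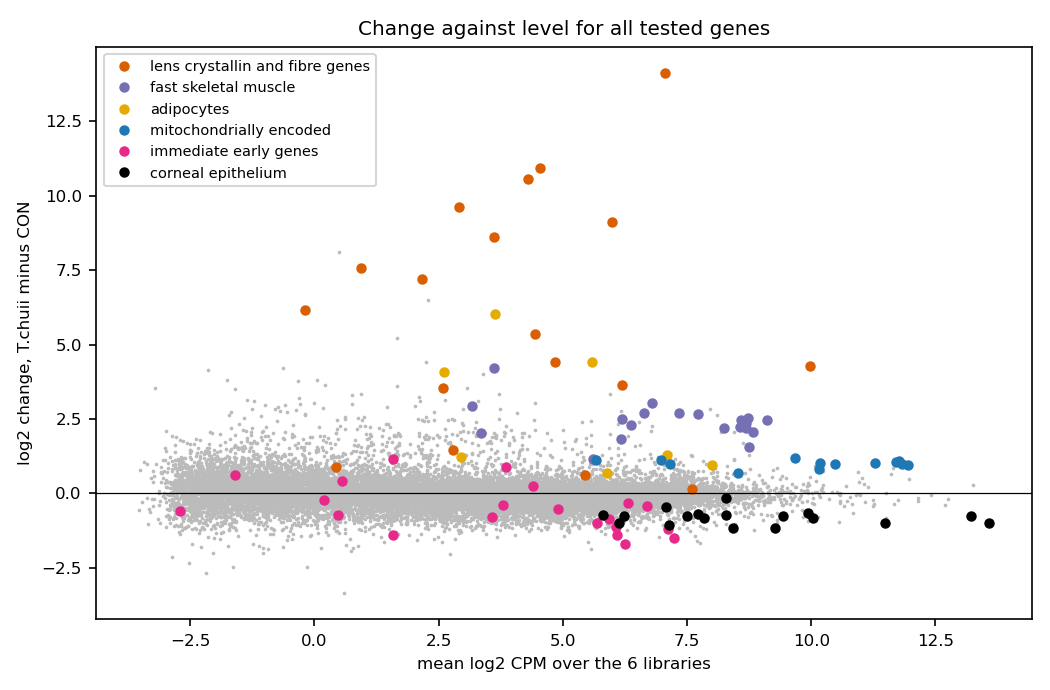
Log2 change of each of 21287 tested genes (T.chuii minus CON, vertical axis) against its mean log2 CPM over the 6 libraries (horizontal axis), with 6 gene lists in colour. Lens genes reach log2 changes of 14.12, muscle and fat genes lie between 0.69 and 6.04, and corneal epithelium genes lie below 0.

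Of the 42 gene lists examined, lens crystallins had the largest median change. Crystallins are the soluble proteins that give the lens its refractive power, and all 6 of those tested were higher in every T.chuii library than in any CON library. By CPM 5.45% of all genes lay above CON in this way. By FPKM all 6 did so too, beside 3.6% of all genes. Together the 6 crystallins held 0.0287%, 0.0201% and 0.0248% of reads in CON and 2.53%, 5.86% and 1.21% in T.chuii, means of 0.0245% ± 0.00428 and 3.20% ± 2.40 (SD, n = 3). The median log2 change of the 6 was 9.84, beside -0.04 over all genes. Another 9 listed crystallins, Cryba1, Crybb2 and Crygb among them, were not found by symbol among the 22587 genes with values. All of those 22587 genes had at least 1 read in every library.

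Cryaa, which encodes alpha-A crystallin and lies at chromosome 17, 31677931 to 31681730 (mm10), stood at 0.261, 12.7 and 0.268 CPM in CON and 18715, 38281 and 8386 in T.chuii. The CON values rest on 11, 737 and 16 reads, and CON 2 was the highest of the 3. Its log2 change was 14.12 ± 2.12 (SE, adjusted p = 0.98 by limma-voom with 9 libraries and 0.0136 with 6). Every T.chuii library lay far above every CON library. Cryab, also named after its values were seen, is the alpha-B crystallin that also acts as a small heat shock protein outside the lens. It started from a higher base of 263, 199.6 and 229.9 CPM in CON and reached 5557, 7379.9 and 2108 in T.chuii (log2 change 4.28 ± 1.04).

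The beta crystallins followed the same order of libraries, with T.chuii 2 highest and T.chuii 3 lowest. Crybb1 was at 0.285, 1.22 and 0.403 CPM in CON and 948, 3847 and 312 in T.chuii (log2 change 10.93 ± 2.41). Cryba4 was at 1.26, 6.35 and 2.40 CPM in CON against 1708, 3829 and 529 in T.chuii (log2 change 9.12 ± 2.09). The 2 genes overlap on chromosome 5 from 112254563 to 112263625, and no source used here gives the strand setting of the counting, so their reads may have been divided between them. Crybb3 was at 0.0949, 1.79 and 0.671 CPM in CON, from 4, 104 and 40 reads, and at 748, 3336 and 200.1 in T.chuii. Adjusted p in the 6-library limma-voom fit was 0.0136 for Crybb1, 0.0136 for Cryba4 and 0.0412 for Crybb3.

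Lens fibre cells are joined by gap junctions and lose their organelles as they mature. All 12 lens fibre genes tested had higher means in T.chuii (median log2 change 4.89), and 9 of them lay wholly above CON, where 5.45% of all genes did. Gja3, which encodes a gap junction connexin, had 11, 49 and 13 reads in the CON libraries and was at 0.261, 0.844 and 0.218 CPM there and 55.8, 128 and 24.8 in T.chuii (log2 change 7.22 ± 2.10, adjusted p = 0.0283 by limma-voom with 6 libraries). Grifin, a lens galectin relative, was at 0.308, 0.189 and 0.319 CPM in CON against 275, 552 and 63.3 in T.chuii, and Pitx3, a transcription factor needed for lens development, at 0.166, 0.0689 and 0.0839 CPM in CON against 10.0, 11.7 and 4.12 in T.chuii. The CON values rest on 13, 11 and 19 reads for Grifin and on 7, 4 and 5 for Pitx3. Pitx3 lay below the filter's equivalent of 10 reads in every CON library and was tested only because of its reads in the other groups. The regulators Prox1, Hsf4 and Tdrd7, which are also expressed elsewhere in the eye, overlapped between groups; Prox1, picked after its values were seen, was at 46.0, 20.4 and 47.5 CPM in CON and 32.9, 75.6 and 63.5 in T.chuii. In the DES libraries Gja3 was at 91.0, 0.556 and 53.8 CPM, which placed DES 2 near CON and DES 1 and DES 3 near T.chuii. Cryab overlaps Hspb2, and Pitx3 overlaps Elovl3, so that the division of reads is uncertain there too.

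Since lens genes had higher means together, 2 promoters of such genes are shown: the bases upstream of the start of Cryaa (chr17:31677681-31677930, plus strand) and of Lim2 (chr7:43429849-43430098, plus strand), both from RefSeq on GRCm38.p6. Lim2 encodes a fibre cell membrane protein and was chosen after its values were seen. It was at 0.641, 0.534 and 0.688 CPM in CON and 208, 1134 and 61.0 in T.chuii. Capitals mark the letters TGCTGA, the half-site of MAF factors, or their reverse complement TCAGCA.
Cryaa: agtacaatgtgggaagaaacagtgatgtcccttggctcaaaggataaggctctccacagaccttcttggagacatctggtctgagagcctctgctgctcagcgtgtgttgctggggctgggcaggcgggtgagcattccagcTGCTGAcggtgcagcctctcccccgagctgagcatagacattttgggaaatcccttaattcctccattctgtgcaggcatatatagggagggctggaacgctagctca
Lim2: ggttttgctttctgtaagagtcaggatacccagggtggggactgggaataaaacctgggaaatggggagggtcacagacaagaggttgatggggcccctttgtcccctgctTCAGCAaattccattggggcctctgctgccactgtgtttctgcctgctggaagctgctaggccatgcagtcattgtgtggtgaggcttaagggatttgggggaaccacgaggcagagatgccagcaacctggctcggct
The match begins at position -108 in Cryaa and at -139 in Lim2, counted from -1 just before the start. These letters, on either strand, occurred in 9 of 18 upstream windows of 250 bases that RefSeq held for 14 of the 18 lens genes in the tables, and in 16.1% of all 32851 windows of that length. A match is a description of the sequence and not a binding site.

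**Figure D2:**
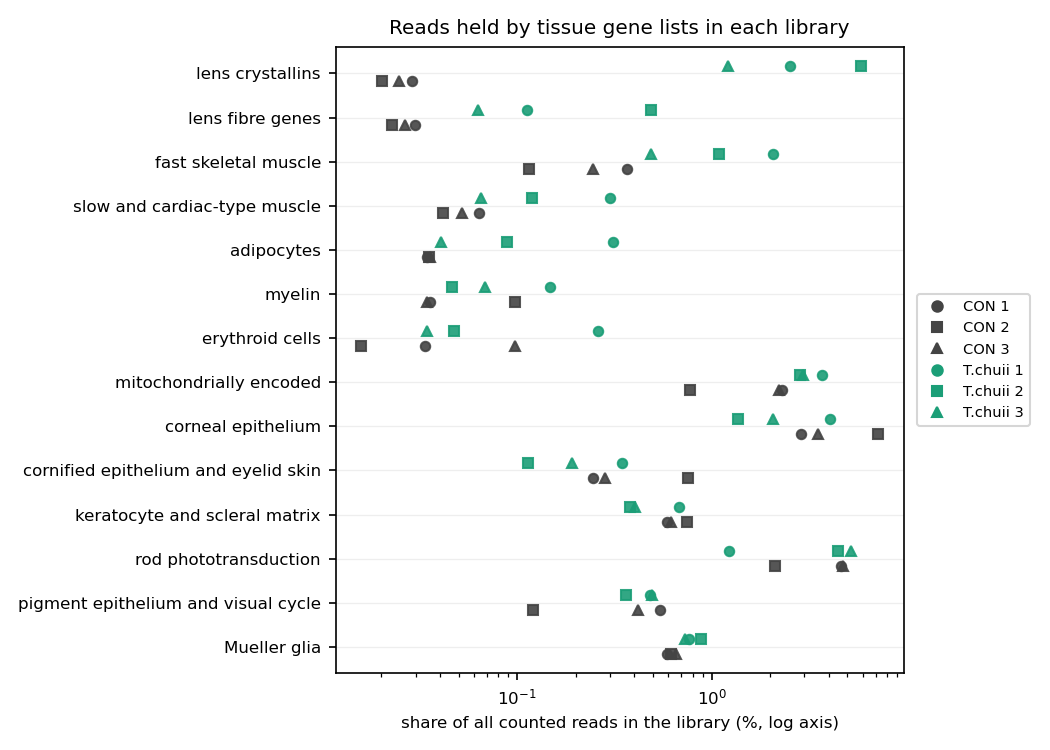
Share of all counted reads held by 14 tissue gene lists in each CON and T.chuii library (percent, log axis; 1 point per library). Lens crystallins lie at 0.0201% to 0.0287% in CON and at 1.21% to 5.86% in T.chuii, and fast muscle genes also separate the groups, while rod, corneal and erythroid genes overlap.

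Skeletal muscle genes had the next largest median. Fast-twitch fibres make up much of the extraocular muscles, which insert on the sclera. All 20 fast muscle genes had higher means in T.chuii, with a median log2 change of 2.41, and 18 of the 20 did not overlap between groups, where 5.45% of all genes lay above in this way. The list held 0.367%, 0.115% and 0.246% of reads in CON and 2.07%, 1.09% and 0.49% in T.chuii, so that T.chuii 1 held the most and T.chuii 3 lay nearest to the highest CON library. Without CON 2, DES 1 and T.chuii 1 the median was 1.40.

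Actn3, the fast-fibre alpha-actinin at chromosome 19, 4861216 to 4877909, was at 8.09, 1.45 and 3.02 CPM in CON and 38.5, 29.7 and 13.2 in T.chuii (log2 change 2.93 ± 0.69). Mylpf, a fast regulatory myosin light chain, was at 144, 34.0 and 120.4 CPM in CON against 1206, 499.8 and 247 in T.chuii (log2 change 2.67 ± 0.70). Myoz1, a Z-disc protein of fast fibres, was at 45.8, 18.4 and 35.1 CPM in CON against 336, 178 and 85.6 in T.chuii, and the muscle phosphoglycerate mutase gene Pgam2 at 71.3, 19.0 and 43.4 CPM in CON against 516, 334 and 91.4 in T.chuii. In all 4 genes T.chuii 1 was highest and CON 2 lowest. None passed the limma-voom test in either fit, with adjusted p of 0.986 and 0.485 for Actn3.

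A pair of myosin heavy chain genes and Ckm were chosen for description after their values were seen. Myh13, the superfast myosin typical of extraocular muscle, was at 5.31, 1.34 and 3.29 CPM in CON and 261, 40.2 and 13.5 in T.chuii (log2 change 4.20 ± 1.85). Myh4, the fast IIB myosin, was at 95.7, 17.5 and 36.2 CPM in CON against 571, 392 and 141 in T.chuii (3.03 ± 0.90). Ckm, the muscle creatine kinase that buffers ATP, was at 215, 182 and 179.7 CPM in CON against 1845, 997 and 373 in T.chuii (2.21 ± 0.70). All 3 genes were higher in each T.chuii library than in any CON library.

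The upstream bases of Ckm (chr7:19410844-19411093, plus strand) and Myh4 (chr11:67237562-67237811, plus strand) are shown as examples of fast muscle promoters, with the E-box letters CAGCTG in capitals.
Ckm: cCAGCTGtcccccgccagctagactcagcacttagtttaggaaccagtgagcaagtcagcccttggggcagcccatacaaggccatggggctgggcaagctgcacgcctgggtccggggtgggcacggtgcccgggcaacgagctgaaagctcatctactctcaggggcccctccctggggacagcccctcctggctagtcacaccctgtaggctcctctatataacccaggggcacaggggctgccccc
Myh4: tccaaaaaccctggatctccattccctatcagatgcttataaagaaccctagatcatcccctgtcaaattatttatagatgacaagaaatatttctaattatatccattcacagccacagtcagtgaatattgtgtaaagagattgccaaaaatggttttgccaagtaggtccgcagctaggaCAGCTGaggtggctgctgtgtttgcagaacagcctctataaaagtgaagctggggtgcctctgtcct
The E-box begins at -249 in Ckm and at -67 in Myh4. CAGCTG, which reads the same on both strands, occurred in 8 of 17 windows of 16 fast muscle genes and in 13.0% of all windows.

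Genes of slow and cardiac-type fibres had higher means in 14 of 15 cases (median log2 change 1.84), with 4 that lay wholly above CON (5.45% of all genes). By FPKM 4 lay above (3.6% of all genes) and 1 below (7.9%). The median was 1.19 without T.chuii 1 and 0.72 without CON 2, DES 1 and T.chuii 1. Myl2, the slow regulatory light chain, was at 6.60, 0.62 and 2.75 CPM in CON and 30.3, 10.4 and 6.03 in T.chuii, where CON 1 exceeded T.chuii 3. Actc1, the cardiac actin also made in immature and extraocular fibres, was at 38.3, 10.2 and 19.8 CPM in CON against 721, 165 and 61.6 in T.chuii (log2 change 3.34 ± 1.16). Mb, the oxygen store myoglobin, was at 174, 98.1 and 170.1 CPM in CON against 1693, 545 and 223 in T.chuii. Smooth muscle and pericyte genes, which belong to iris and vessels, had 7 of 12 higher means and a median change of 0.07, which was -0.03 on the FPKM scale and -0.13 without T.chuii 1.

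Fat cell genes also had higher means in T.chuii. All 7 adipocyte genes tested had higher means (median log2 change 1.30), 4 without overlap (5.45% of all genes). Another 5 listed ones, Adipoq and Plin1 among them, were not found by symbol among the 22587 genes with values. Fabp4, the adipocyte fatty acid carrier at chromosome 3, 10204342 to 10208616, was at 22.9, 3.39 and 15.7 CPM in CON and 954, 181 and 61.0 in T.chuii (log2 change 4.42 ± 1.01). Cfd, which encodes the adipokine adipsin, was at 4.27, 0.517 and 1.71 CPM in CON against 510.0, 123 and 15.9 in T.chuii (6.04 ± 1.45). Retn, the resistin gene, was at 2.30, 0.758 and 1.79 CPM in CON against 94.8, 23.3 and 7.43 in T.chuii (4.09 ± 0.95). Lpl, which releases fatty acids from circulating triglyceride, was at 93.2, 84.9 and 84.1 CPM in CON against 503, 183 and 106 in T.chuii.

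In each of these fat genes T.chuii 1 was highest, T.chuii 2 second and T.chuii 3 lowest, and all 3 exceeded the CON libraries. Without T.chuii 1 the list's median was 0.68. Thrsp, a regulator of fatty acid synthesis from the gland list, was at 26.3, 13.5 and 24.5 CPM in CON and 314, 104 and 39.2 in T.chuii (log2 change 2.42 ± 0.65). The gland list as a whole, which covers lacrimal, Harderian and meibomian glands, had 6 of 15 genes higher and a median of -0.14, which was 0.12 without CON 2 and 0.11 without CON 3.

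Fatty acid oxidation genes had higher means in 16 of 19 cases (median log2 change 0.33), 6 of them without overlap (5.45% of all genes). Cd36, the fatty acid uptake receptor of muscle and fat, was at 27.1, 10.2 and 22.9 CPM in CON and 283, 76.9 and 40.3 in T.chuii. Fabp3, the muscle fatty acid carrier, was at 64.5, 32.5 and 60.7 CPM in CON against 399, 119 and 73.7 in T.chuii, and the mitochondrial trifunctional protein subunit Hadhb at 164, 170.0 and 158 CPM in CON against 467, 214 and 205 in T.chuii. Cpt1b, the muscle form of the carnitine transferase that admits fatty acids to mitochondria, was at 2.51, 2.79 and 4.41 CPM in CON against 30.1, 11.8 and 5.43 in T.chuii. Without T.chuii 1 the median was 0.12.

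Respiratory chain genes had higher means in T.chuii without exception among the 13 mitochondrially encoded and 25 nuclear-encoded genes listed. The mitochondrial genome encodes core subunits of complexes I, III, IV and V, and its 13 genes held 2.29%, 0.777% and 2.21% of reads in CON and 3.68%, 2.86% and 2.95% in T.chuii. Their median log2 change was 1.02, within a range of 0.70 to 1.20, and 10 of 13 lay wholly above CON, where 5.45% of all genes did. CON 2 was the lowest library for each of the 4 genes that follow. COX1, the catalytic subunit of cytochrome c oxidase, was at 2916, 1767 and 3340.3 CPM in CON and 6529, 4666 and 4432 in T.chuii (log2 change 0.99 ± 0.32).

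ND4L, a subunit of complex I, was at 46.7, 17.4 and 51.5 CPM in CON against 95.6, 72.9 and 61.6 in T.chuii, and ND5, of the same complex, at 1046, 566 and 1045 CPM in CON against 1756, 1490.4 and 1317 in T.chuii. CYTB, the cytochrome b of complex III, was at 3623, 1657 and 3871 CPM in CON against 6646, 5053 and 5072 in T.chuii. The median change of the 13 genes was 0.56 without CON 2, and 0.38 without CON 2, DES 1 and T.chuii 1. The nuclear-encoded list had a median of 0.49 with 7 of 25 genes wholly above CON (5.45% of all genes), and a median of 0.23 without T.chuii 1. Uqcrfs1, the Rieske iron-sulfur subunit of complex III, was at 210.3, 151 and 197 CPM in CON and 508, 313 and 242 in T.chuii. Cycs, which encodes cytochrome c, was at 266, 125 and 223 CPM in CON against 636, 290.1 and 275 in T.chuii.

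Glycolysis genes were mixed, with 11 of 20 higher and a median of 0.03 (-0.05 on the FPKM scale), and 5 lay wholly above CON (5.45% of all genes). By FPKM 3 lay above (3.6% of all genes) and 1 below (7.9%). Without T.chuii 1 the list had 16 of 20 higher and a median of 0.27. Pfkm, the muscle phosphofructokinase, was at 78.7, 81.5 and 76.4 CPM in CON and 308, 184 and 108 in T.chuii (log2 change 1.22 ± 0.44). Ldhb, a lactate dehydrogenase subunit, was at 281, 203 and 272 CPM in CON against 503, 374 and 334 in T.chuii, and the aldolase gene Aldoa at 2633, 2050.3 and 2887 CPM in CON against 4415, 4141 and 3248 in T.chuii. T.chuii 1, the library with most fast muscle reads, was also highest for each fat, oxidation, respiratory and glycolysis gene named here, and the part of muscle in those differences was not tested.

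**Figure D3:**
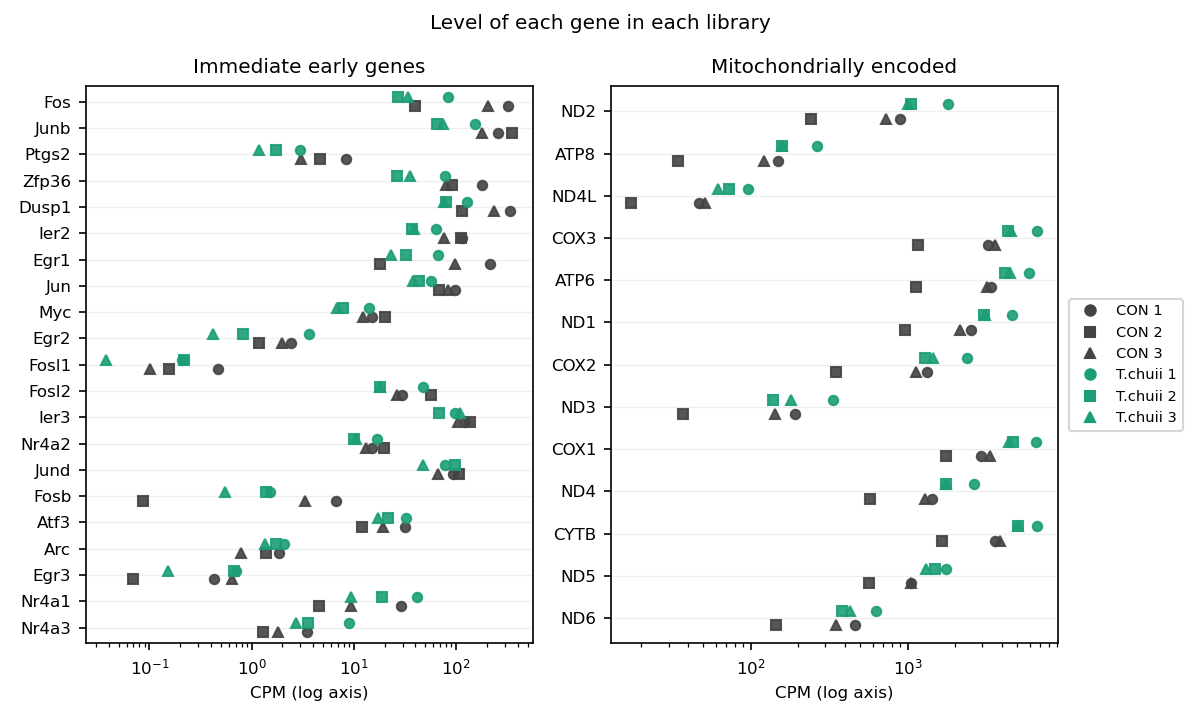
CPM of each immediate early gene (left) and each mitochondrially encoded gene (right) in each library (log axis, 1 point per library, genes ordered by log2 change). Most early genes lie lower in T.chuii, with Fos at 39.2 to 320.3 CPM in CON and 27.1 to 83.5 in T.chuii, and all 13 mitochondrial genes have higher means in T.chuii.

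Immediate early genes, which are transcribed within minutes of a stimulus and whose mRNAs decay quickly, tended to be lower in T.chuii. Of 21 tested, 16 had lower means (median log2 change -0.61), and 5 lay wholly below CON, where 2.97% of all genes did (6 by FPKM, where 7.9% did). Ptgs2, the inducible cyclooxygenase of prostaglandin synthesis at chromosome 1, 150100031 to 150108234, was at 8.30, 4.63 and 3.02 CPM in CON and 2.96, 1.72 and 1.17 in T.chuii (log2 change -1.41 ± 0.45). Junb, a subunit of the AP-1 transcription factor, was at 259, 354 and 178 CPM in CON against 155, 64.6 and 74.9 in T.chuii (-1.48 ± 0.50). Zfp36, whose product destabilises cytokine mRNAs, was at 180.1, 90.6 and 80.4 CPM in CON against 77.5, 26.7 and 35.4 in T.chuii (-1.40 ± 0.50). Ier2 was at 115, 111 and 76.0 CPM in CON against 63.8, 37.2 and 38.8 in T.chuii.

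Fos, named here after its values were seen, had the largest negative change of the list and was at 320.3, 39.2 and 203 CPM in CON and 83.5, 27.1 and 34.0 in T.chuii (-1.70 ± 0.78). CON 2, at the foot of the CON range, lay within the T.chuii range. The median of the list was -0.97 without T.chuii 1, -0.28 without T.chuii 3 and -1.11 without CON 2, DES 1 and T.chuii 1. None of these genes passed limma-voom in the 9-library or the 6-library fit, with 9-library adjusted p of 0.986 for Ptgs2 and 0.986 for Junb. The fit of the 4 libraries without CON 2 and T.chuii 1 was chosen after seeing the data. It left 2 residual degrees of freedom and dropped CON 2, whose Fos value lay within the T.chuii range. In that limma-voom fit Fos (log2 change -3.09 ± 0.23, adjusted p = 0.0063), Junb (-1.64 ± 0.20, adjusted p = 0.042) and Dusp1 (-1.88 ± 0.19, adjusted p = 0.0158) had lower means in T.chuii. The planned limma-voom fit without CON 2, DES 1 and T.chuii 1 called 1 gene, AA386476, and none of these.

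Among 19 circadian clock genes 12 had lower means, and 4 lay wholly below (2.97% of all genes) and 1 wholly above CON (5.45% of all genes). By FPKM 5 lay below (7.9% of all genes) and 0 above (3.6%). Without T.chuii 1 the number with lower means was 9. Nr1d1, the repressor REV-ERB alpha, was at 133, 129.8 and 126 CPM in CON and 74.3, 87.0 and 104 in T.chuii (log2 change -0.57 ± 0.21). Npas2, a partner of BMAL1, was at 6.71, 14.3 and 5.70 CPM in CON against 4.99, 5.41 and 2.89 in T.chuii, and the output factor Hlf at 87.7, 112 and 81.6 CPM in CON against 76.3, 61.0 and 69.8 in T.chuii. Per2, a negative arm component, was higher at 5.39, 2.91 and 4.09 CPM in CON against 5.75, 6.52 and 6.52 in T.chuii (0.66 ± 0.29). The hour at which tissue was taken is not given in the labels.

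Stress hormone and protein folding genes gave single differences within mixed lists. Means were higher for 8 of 15 glucocorticoid-responsive genes (median 0.03, or -0.05 on the FPKM scale), yet Fkbp5, a chaperone that restrains the glucocorticoid receptor, was at 58.3, 85.5 and 29.0 CPM in CON and 24.7, 25.8 and 25.4 in T.chuii (log2 change -1.05 ± 0.36). All 3 T.chuii values of Fkbp5 lay close together and below CON. By CPM 1 of the 15 glucocorticoid-responsive genes lay wholly below CON (2.97% of all genes) and 0 above (5.45%). Of 18 heat shock and unfolded protein genes 14 had lower means (median -0.21). By CPM 1 lay wholly below CON (2.97% of all genes) and by FPKM 7 (7.9% of all genes). Trib3, a pseudokinase of the integrated stress response, was at 8.35, 25.7 and 10.2 CPM in CON against 6.50, 5.93 and 5.98 in T.chuii. The inducible chaperone Hspa1b was at 246, 722 and 254 CPM in CON against 263, 106 and 133 in T.chuii, with CON 2 far above the rest.

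Most surface epithelium and stroma genes had lower means in T.chuii, and few separated the groups. All 18 corneal epithelium genes had lower means, with a median log2 change of -0.77. By CPM none of the 18 separated the groups, while by FPKM 2 lay wholly below CON (7.9% of all genes). The list held 2.88%, 7.18% and 3.53% of reads in CON and 4.07%, 1.37% and 2.07% in T.chuii. Trp63, the master regulator of stratified epithelium, was at 88.1, 157 and 69.6 CPM in CON and 85.3, 29.3 and 49.4 in T.chuii. Krt14, a keratin of basal cells, was at 505, 1884 and 856 CPM in CON against 746, 340.2 and 278 in T.chuii, and Krt12, the keratin of the corneal epithelium, at 11580.4, 33865 and 13535 CPM in CON against 19573, 3997 and 8412 in T.chuii. CON 2 was the highest CON library and T.chuii 1 the highest T.chuii library for Krt12, as in the ratio of corneal to rod reads given above, whose part in the lower means of surface genes was not tested. The list's median was -0.43 without CON 2, -1.20 without T.chuii 1 and -0.37 without T.chuii 2.

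Cornified epithelium genes, typical of eyelid skin and of the surface under desiccation, had lower means in 11 of 13 cases (median -0.87), and 2 of 13 lay wholly below CON (2.97% of all genes). Lor, which encodes the envelope protein loricrin, was at 2.47, 2.38 and 1.69 CPM in CON and 0.582, 0.742 and 1.53 in T.chuii (log2 change -1.27 ± 0.40). Krt17, a keratin of stressed and regenerating epithelium, was at 69.4, 135 and 77.2 CPM in CON against 22.4, 32.3 and 21.0 in T.chuii (-1.85 ± 0.70, adjusted p = 0.193 in the 6-library limma-voom fit). In these 2 genes every T.chuii library was lower than any CON library. The median ranged from -1.43 without T.chuii 1 to -0.37 without CON 2.

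Matrix genes of keratocytes and sclera had lower means in 15 of 18 cases (median -0.74). By CPM 1 of the 18 lay wholly above CON (5.45% of all genes) and 0 below (2.97%). By FPKM 1 lay above (3.6% of all genes) and 5 below (7.9%). The gene above by CPM was Ogn, the proteoglycan osteoglycin, at 176, 158 and 178 CPM in CON and 272, 214 and 196 in T.chuii, named after its values were seen. Col1a1, a chain of type I collagen, was at 83.6, 119 and 49.7 CPM in CON and 52.0, 24.0 and 13.9 in T.chuii (log2 change -1.63 ± 0.46), and Col1a2, the partner chain, at 231, 536 and 206 CPM in CON against 223, 109 and 74.6 in T.chuii. Kera, the corneal proteoglycan keratocan, was at 264, 733 and 253 CPM in CON against 339, 45.2 and 111 in T.chuii. The highest T.chuii library, T.chuii 1, exceeded at least 1 CON library in each of the 3. The median was -0.42 without CON 2 and -1.13 without T.chuii 1. Angptl7, made by keratocytes and the outflow tract, was at 286, 604 and 211 CPM in CON against 262, 62.8 and 111 in T.chuii.

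For the dry eye panel, no gene passed the limma-voom test in either fit. Dry eye is marked by cytokine and protease induction at the ocular surface and by loss of mucins and tear secretion. Il1b, the inflammatory interleukin, was at 4.29, 2.76 and 2.23 CPM in CON and 3.75, 1.22 and 0.567 in T.chuii (log2 change -1.11 ± 0.57). Tnf was at 6.43, 9.97 and 1.95 CPM in CON against 5.61, 2.12 and 4.78 in T.chuii, the monocyte chemokine Ccl2 at 7.88, 0.878 and 1.17 CPM in CON against 6.41, 2.64 and 2.34 in T.chuii, and Cxcl10, a chemokine induced by interferon, at 0.356, 0.585 and 0.285 CPM in CON against 1.61, 0.393 and 0.794 in T.chuii. All 4 overlapped between groups. The cytokine list had 9 of 13 tested members lower (median -0.25). The other 9 listed, Il6 and Ifng among them, were not found by symbol among the 22587 genes with values. Without CON 2 the median of the cytokine list was 0.05, in the other direction.

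Mmp3, the stromelysin, lay wholly below CON, at 158, 221 and 197 CPM in CON and 129, 77.7 and 116 in T.chuii (log2 change -0.85 ± 0.37). Mmp9, the gelatinase raised in dry eye tears, was at 3.16, 3.15 and 3.96 CPM in CON against 2.19, 4.15 and 3.57 in T.chuii. The adhesion gene Icam1 was at 13.6, 18.9 and 9.61 CPM in CON against 19.5, 11.2 and 7.58 in T.chuii. Timp4, an inhibitor of these proteases from the same list, was at 2.49, 1.50 and 2.50 CPM in CON against 18.4, 9.88 and 3.65 in T.chuii (log2 change 2.02 ± 0.68), higher in each T.chuii library. By CPM 1 of the 12 protease and inhibitor genes tested lay wholly above CON (5.45% of all genes) and 1 wholly below (2.97%).

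Of 10 mucin and goblet cell genes, Muc13, a membrane mucin under 2 CPM throughout, lay wholly below CON (2.97% of all genes), and the other 9 overlapped. Muc1, a membrane mucin, was at 26.2, 43.4 and 25.5 CPM in CON and 25.4, 29.7 and 27.6 in T.chuii, and Muc4 at 72.5, 248 and 98.7 CPM in CON against 163, 104 and 101 in T.chuii. Muc5ac, the gel-forming mucin of goblet cells, was at 2.37, 32.0 and 12.3 CPM in CON against 11.0, 31.4 and 8.53 in T.chuii, with CON 2 and T.chuii 2 highest. Aqp5, the apical water channel of the corneal epithelium and lacrimal gland, was at 2452, 8061 and 2964 CPM in CON against 4704, 1138 and 1853 in T.chuii. The sodium channel subunit Scnn1b was at 1.42, 4.65 and 1.63 CPM in CON against 1.75, 0.545 and 0.737 in T.chuii.

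Muscarinic receptors, the targets of scopolamine, were low. Chrm3, the receptor that drives glandular secretion, was at 2.11, 1.22 and 1.58 CPM in CON and 1.07, 2.36 and 1.68 in T.chuii (log2 change 0.04 ± 0.39), and Chrm1 at 1.90, 3.36 and 1.96 CPM in CON against 2.91, 3.03 and 3.27 in T.chuii. Bche, which encodes the choline ester hydrolase butyrylcholinesterase, was higher in every T.chuii library, at 2.30, 2.69 and 2.35 CPM in CON against 6.08, 4.36 and 4.46 in T.chuii (1.00 ± 0.28). Chrna1, the muscle nicotinic receptor subunit, was at 2.42, 2.62 and 1.59 CPM in CON against 35.3, 6.37 and 2.69 in T.chuii. Of the whole list 8 of 14 had higher means, with a median of 0.04 that was -0.06 on the FPKM scale, and -0.11 without CON 2 against 0.33 without T.chuii 1. By CPM 2 of the 14 lay wholly above CON (5.45% of all genes) and 0 below (2.97%).

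Of the antioxidant genes 15 of 31 had higher means (median -0.05), and 4 lay wholly above CON (5.45% of all genes). By FPKM 2 lay above (3.6% of all genes) and 4 below (7.9%). Without T.chuii 2, 22 of 31 had higher means, with a median of 0.19, and without T.chuii 1 it was 11 of 31, with a median of -0.11. Gstm1, a glutathione transferase, was at 109, 129 and 131 CPM in CON and 402, 311 and 206 in T.chuii (log2 change 1.28 ± 0.35). Slc7a11, the cystine importer that feeds glutathione synthesis, was at 4.53, 6.87 and 5.50 CPM in CON against 13.6, 11.6 and 8.28 in T.chuii (0.96 ± 0.33). Sod2, the mitochondrial superoxide dismutase, was at 160.4, 128 and 149 CPM in CON against 292, 182 and 172 in T.chuii. These 3 genes lay wholly above CON. The cytosolic Sod1 was at 59.8, 31.9 and 66.2 CPM in CON against 68.3, 68.6 and 65.5 in T.chuii, the extracellular Sod3 at 60.4, 205 and 72.3 CPM in CON against 129, 72.0 and 46.2 in T.chuii. The glutathione peroxidase gene Gpx1 was at 356, 501 and 401 CPM in CON against 614, 297 and 299 in T.chuii, and catalase (Cat) at 79.5, 93.5 and 78.2 CPM in CON against 128, 85.7 and 79.0 in T.chuii. Of the NRF2 targets in the panel, Nqo1 was at 80.5, 176 and 97.4 CPM in CON against 128, 59.0 and 83.8 in T.chuii and Hmox1 at 32.7, 11.1 and 7.65 CPM in CON against 19.8, 70.8 and 10.1 in T.chuii, both overlapping.

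Retinal neuron genes overlapped between groups by CPM. Of 21 rod genes 16 had lower means (median -0.17), and the median turned to 0.42 without T.chuii 1, the library lowest in rod reads. It was also positive without CON 3, at 0.04. Nrl, the rod fate factor, was at 128, 60.9 and 117 CPM in CON and 35.2, 103 and 115 in T.chuii. Cone genes had a median of 0.08 (-0.04 on the FPKM scale) and inner retinal neurons of -0.13. Leaving out CON 2 gave cone and inner retinal medians of -0.48 and -0.44, and leaving out T.chuii 1 gave 0.67 and 0.42. By CPM, none of the 21 rod, 12 cone or 24 inner retinal genes separated the groups. By FPKM 3 inner retinal genes lay wholly below CON (7.9% of all genes).

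Glial genes gave a few differences. Müller cells are the radial glia of the retina, and 10 of their 14 listed genes had higher means (median 0.14). That median was -0.03 without CON 2 and 0.36 without T.chuii 1. By CPM 3 of the 14 lay wholly above CON (5.45% of all genes) and 1 wholly below (2.97%). By FPKM 2 of the 14 lay above (3.6% of all genes) and 1 below (7.9%). Vim, the intermediate filament vimentin also abundant in lens cells, was at 109, 153 and 122 CPM in CON and 357, 391 and 194 in T.chuii (log2 change 1.25 ± 0.40), and Clu, the chaperone clusterin, at 1256, 1680.5 and 1732 CPM in CON against 2815, 2688 and 2137 in T.chuii (0.72 ± 0.27). The reactive gliosis list was mixed, with 9 of 15 genes higher and 6 lower (median 0.12, or -0.02 without CON 1). By CPM 1 of its genes lay wholly above CON (5.45% of all genes) and 1 below (2.97%). Cp, the ferroxidase ceruloplasmin from the gliosis list, was at 98.9, 140.3 and 105 CPM in CON against 193, 215 and 198 in T.chuii (0.83 ± 0.23). Gfap, the marker filament of reactive glia, was at 7.71, 28.9 and 12.1 CPM in CON against 49.3, 36.1 and 26.8 in T.chuii (1.34 ± 0.43), with CON 2 above T.chuii 3.

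Myelin genes had higher means in 8 of 9 cases (median 0.93), but CON 2 was the next highest library after T.chuii 1 for Mobp. Mobp, an oligodendrocyte myelin protein gene, was at 0.688, 143 and 3.81 CPM in CON and 237, 19.9 and 59.6 in T.chuii. Pmp22, of peripheral nerve myelin, was at 155, 155 and 156 CPM in CON against 335, 227 and 193 in T.chuii. The median was 1.46 without CON 2 and 0.43 without T.chuii 1. Pigment epithelium genes had higher means in 14 of 16 cases (median 0.27), with a median of -0.02 without CON 2.

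Immune, interferon and proliferation genes mostly overlapped between groups, with 1 of 17 macrophage genes above CON (5.45% of all genes) and none of the 25 interferon or 20 cell cycle genes apart by CPM. By FPKM, 1 macrophage gene lay above (3.6% of all genes), and 2 macrophage genes and 1 interferon gene below (7.9%). Means were higher for 10 of 17 macrophage and microglia genes (median 0.13, or -0.06 without T.chuii 1), and for 9 of 18 complement genes. Interferon-response genes had lower means in 24 of 25 cases (median -0.48). Isg15, the ubiquitin-like modifier, was at 17.9, 41.0 and 12.7 CPM in CON and 44.2, 3.05 and 7.96 in T.chuii, and Irf9, a subunit of the interferon-activated transcription complex, at 44.1, 124 and 47.1 CPM in CON against 69.7, 21.2 and 29.1 in T.chuii. CON 2 and T.chuii 1 were the high libraries in both. Without T.chuii 2 the median was -0.08.

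Cell cycle genes had lower means in 19 of 20 cases (median -0.63), with Bub1b, a mitotic checkpoint kinase, at 18.6, 34.4 and 29.1 CPM in CON and 15.8, 18.2 and 23.7 in T.chuii. Without CON 2 the median was -0.23. Haemoglobin genes had higher means, with Hbb-bs at 69.0, 52.5 and 308 CPM in CON against 881, 136 and 96.5 in T.chuii. The erythroid median of 1.06 turned to -0.48 without CON 2, DES 1 and T.chuii 1.

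**Figure D4:**
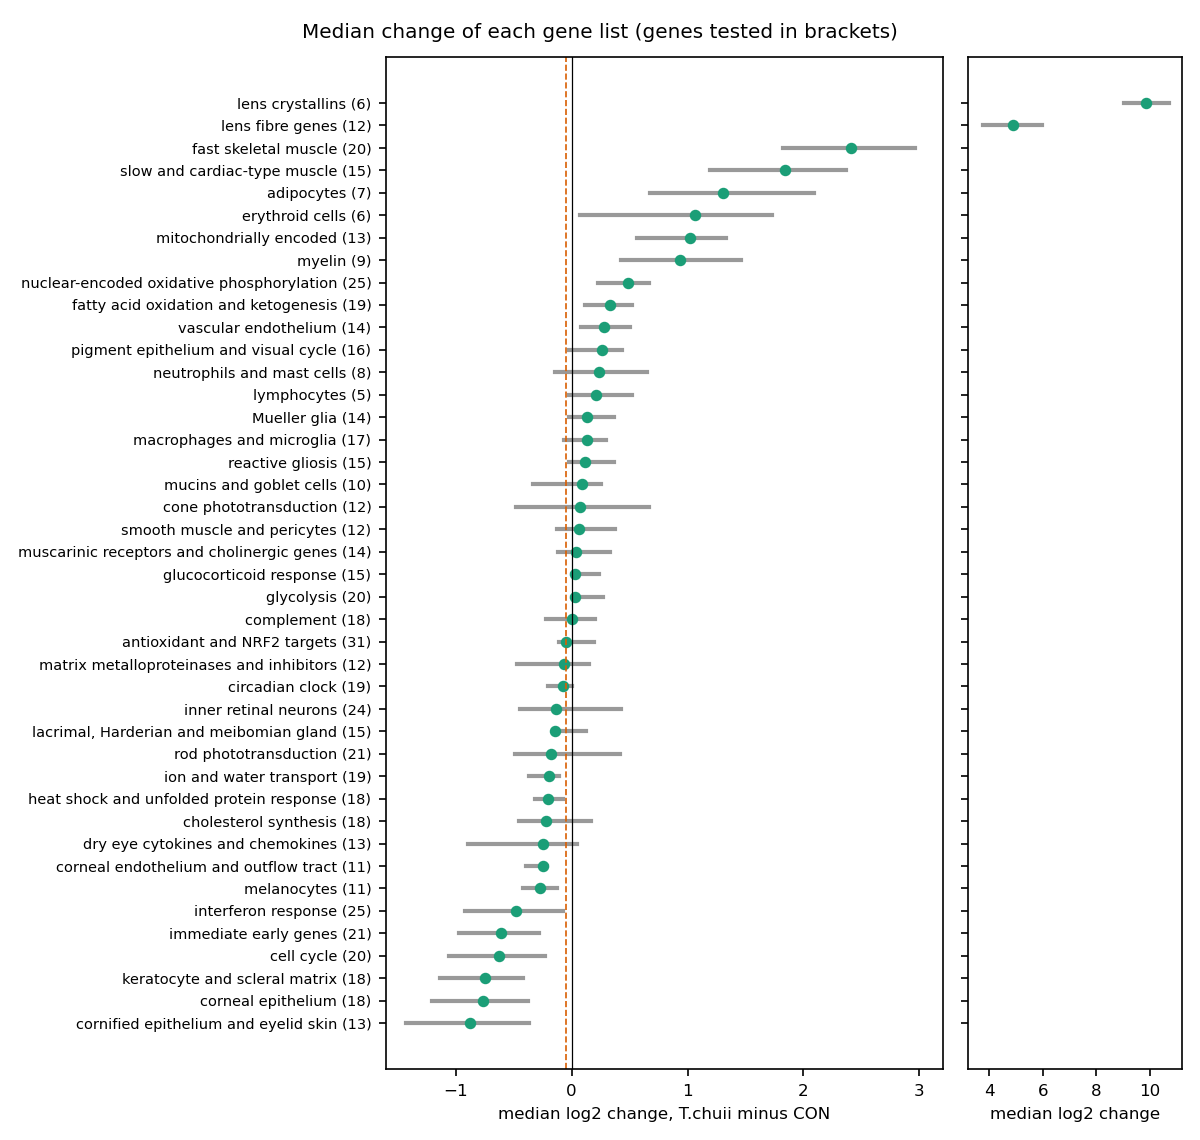
Median log2 change (T.chuii minus CON) of each of 42 gene lists in the 9-library fit (points), with the range over leaving out each of the 6 libraries in turn (bars). The dashed line marks the median of all genes, -0.04; lens lists are on the right panel, bars that cross 0 mark lists whose sign depended on 1 library, and the cornified epithelium list is lowest at -0.87.

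By the naming rule, the 12 protein-coding genes of smallest p among those whose groups did not overlap were listed in each direction. Of the 12 with higher means, Cryaa, Crybb1 and Cryba4 are lens genes, Actn3 is a muscle gene, and Fabp4 and Retn are fat genes, as given above. Sept1, a septin, was at 0.712, 1.17 and 1.16 CPM in CON and 22.2, 6.65 and 3.03 in T.chuii. The annotated spans of Sept1 and the muscle gene Mylpf overlap on chromosome 7 from 127212709 to 127214288, so reads could have been divided between them.

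Cubn, the endocytic receptor cubilin, was at 0.664, 0.534 and 0.839 CPM in CON and 3.21, 3.29 and 1.97 in T.chuii (log2 change 2.02 ± 0.43). Adamts18, a matrix protease needed for eye development, was at 2.30, 1.88 and 2.10 CPM in CON against 10.9, 18.6 and 7.36 in T.chuii (2.44 ± 0.55). Nnat, an imprinted membrane proteolipid gene, was at 18.1, 9.11 and 21.7 CPM in CON against 69.8, 77.4 and 54.6 in T.chuii (2.13 ± 0.50), and Npl, which cleaves sialic acid, at 9.44, 5.84 and 11.4 CPM in CON against 25.6, 32.2 and 22.1 in T.chuii (1.62 ± 0.39). Atp1b4, a sodium pump beta subunit relative found in muscle, was at 0.237, 0.155 and 0.185 CPM in CON against 2.33, 1.20 and 0.624 in T.chuii. T.chuii 2 was the highest of the 6 CON and T.chuii libraries for Cubn, Adamts18, Nnat and Npl. Nnat lies within a span shared with Blcap. In the DES libraries Adamts18, Nnat and Npl were lowest in DES 2, the library with few lens reads. Over DES 1 to 3, Adamts18 was at 13.9, 3.03 and 6.85 CPM, Nnat at 78.4, 19.6 and 56.5 CPM and Npl at 26.4, 13.4 and 34.4 CPM.

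Of the 12 genes with lower means, Lor and Ptgs2 are given above. Sema4c, a membrane semaphorin, was at 3.80, 4.72 and 2.82 CPM in CON and 1.93, 1.75 and 1.57 in T.chuii (log2 change -1.08 ± 0.32), and Bcl11b, a zinc finger repressor, at 3.61, 4.43 and 3.37 CPM in CON against 1.93, 2.01 and 1.93 in T.chuii (-0.95 ± 0.29). Snai2, a repressor of epithelial cadherin, was at 29.7, 48.1 and 34.5 CPM in CON against 27.4, 11.3 and 15.4 in T.chuii (-1.14 ± 0.35). Lgals7, the galectin of stratified epithelia, was at 8.83, 12.5 and 14.9 CPM in CON against 4.43, 6.61 and 3.73 in T.chuii (-1.32 ± 0.41).

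Calm4, a calmodulin-like gene of skin, was at 0.712, 3.19 and 4.14 CPM in CON and 0.443, 0.524 and 0.246 in T.chuii, which put CON 1 nearest to the T.chuii range. Etv6, an ETS repressor, was at 52.8, 76.9 and 32.3 CPM in CON against 27.6, 16.4 and 28.3 in T.chuii, and Chst12, a chondroitin sulfotransferase, at 61.5, 86.3 and 45.1 CPM in CON against 36.0, 25.2 and 36.9 in T.chuii. Lratd2 was at 33.7, 44.4 and 28.6 CPM in CON against 20.9, 19.2 and 23.8 in T.chuii, the matrix gene Tnn (tenascin N) at 1.11, 1.45 and 0.99 CPM in CON against 0.652, 0.458 and 0.208 in T.chuii, and the potassium channel subunit Kcns1 at 1.14, 2.94 and 1.39 CPM in CON against 1.05, 0.545 and 0.511 in T.chuii. The adjusted p was 0.986 for each of these 12 genes in the 9-library limma-voom fit, and no gene of the 12 passed in the 6-library fit.

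**Figure D5:**
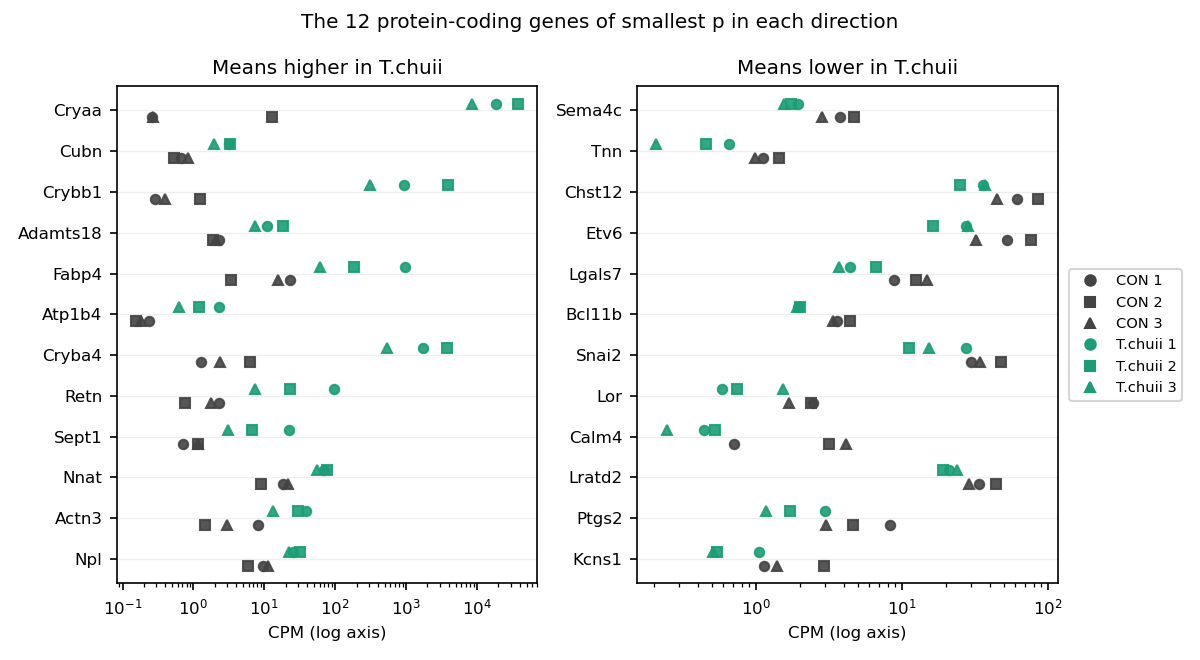
CPM in each CON and T.chuii library (log axis, 1 point per library) of the 12 protein-coding genes of smallest p with higher means in T.chuii (left) and with lower means (right), all chosen among genes whose groups do not overlap. Lens genes are apart by orders of magnitude, with Cryaa at 12.7 CPM or less in CON and at 8386 or more in T.chuii, while the lower genes differ by log2 changes of -0.72 to -2.48.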

How the data were processed

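RNA was sequenced from whole eyeballs, and the deposited table of each library gives a read count and an FPKM value per gene, per the file headers. The authors' read counts are whole numbers of at least 1 in every row. No gene without reads in some library is therefore among the 22587 genes with values. Whether listed genes that were not found by symbol are missing for that reason was not tested. The submitters' processing notes name the build mm10 and the tools StringTie 2.1.3b, HISAT2 2.1.0, Bowtie2 2.3.4.1, Trimmomatic 0.38 and FastQC 0.11.7, without their roles. No source used here gives the strand setting. The read count was taken from the last cell of each row and the FPKM value from the cell before it.

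Rows of the tables hold varying numbers of cells, so the read column, the last cell, could not be checked as raw counts by its header position. The count model planned for a checked column was therefore not used, and limma-voom 3.58.1 (R 4.3.3), the planned substitute, was fitted to all 3 groups with trimmed-mean scaling computed in R. Of 22587 genes, 21287 passed a filter asking for the equivalent of 10 reads in at least 3 libraries and 15 in total. Adjusted p is by the Benjamini-Hochberg method at 0.05. The fit was also run on simulated counts with the same mean levels in all libraries, apart from genes set to change in T.chuii. That simulation held no differences in tissue makeup between libraries, so it cannot show how the fit behaves under them. The smallest exact two-sided permutation p for 3 against 3 libraries is 0.1, so single genes were tested in the fit alone. Totals limit precision at low levels. Replicate pairs differed by more than sampling noise, with a chi-square per degree of freedom of at least 33.9.

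Named genes were the 12 protein-coding genes of smallest p in each direction among those with a mean of at least 1 CPM and no overlap, the 4 of smallest p in each described list, and a dry eye panel; any other gene named was chosen after its values were seen. Of the genes so chosen, 1 is not reported here. Members and lists were chosen with earlier results of these data known. Alternatives covered scaling, filters, FPKM values, quality weights, the corneal to rod ratio as a covariate, the replicate block and leaving out libraries. The alternatives within the 6-library fit were chosen after seeing the data. Symbols and promoters came from RefSeq (22534 IDs matched). Same-numbered libraries were not treated as pairs in the main fit, and whether they are pairs could not be settled.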

Additional observations from a re-analysis of the deposited data

How the results depend on the processing

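Gene-level calls between T.chuii and CON depended on which libraries entered the fit. The main limma-voom count of 0 became 12 with the 6 libraries alone, 2 with sample quality weights and 1 without CON 2, DES 1 and T.chuii 1; it was 0 without each single library, under other scalings and filters, and on FPKM. Genes at an unadjusted p under 0.05 numbered 2355 with quality weights, 2202 with the corneal to rod ratio as a covariate and 403 to 1404 when single libraries were left out (403 without CON 2, 1404 without T.chuii 1, 508 without T.chuii 2). In the 6-library fit, leaving out single libraries, chosen after seeing the data, gave 1 to 40 calls. Non-overlapping genes numbered 766 above and 1682 below by FPKM, and 1161 below by library totals. With the replicate block 0 genes were called and 983 had an unadjusted p under 0.05. Deviations of same-numbered libraries from their group means correlated at -0.36, -0.42 and 0.34, and those of other pairs at -0.47 to 0.50. With 3 libraries per group, these values cannot show whether the numbers pair libraries. For the 12 genes of smallest p in each direction, 427 values kept their direction and side of the threshold, 4 newly passed it and 0 reversed. These genes were chosen for small p and no overlap, and none was called in the main fit. Their steadiness therefore follows largely from that choice. Of 756 list medians under alternatives 79 had the other sign, in 22 of 42 lists. DESeq2 was not run, since the read column could not be checked as raw counts by its header position. Depth limits genes under about 1 CPM. The causes of these differences were not tested.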

Other observations

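Genes outside the lists, chosen after their values were seen, included 3 of the 12 called in the 6-library limma-voom fit. Lix1, a gene linked to autophagy, was at 2.85, 2.29 and 2.35 CPM in CON and 39.1, 31.8 and 19.2 in T.chuii (6-library log2 change 3.53 ± 0.36, adjusted p = 0.0177). R3hdml, a secreted protein gene, was at 0.403, 0.637 and 0.503 CPM in CON against 105, 42.3 and 23.1 in T.chuii (6.49 ± 0.70, adjusted p = 0.0208 in the same limma-voom fit). The pseudogene Gm11578 was at 0.356, 0.258 and 0.369 CPM in CON against 5.47, 4.69 and 2.87 in T.chuii. Each T.chuii library exceeded each CON library in all 3 genes. In the DES libraries Lix1 was at 42.0, 1.67 and 42.6 and R3hdml at 43.4, 0.674 and 32.7 CPM. The fit of the 4 libraries without CON 2 and T.chuii 1 was chosen after seeing the data and left 2 residual degrees of freedom. In that limma-voom fit Ccn1, a matrix-associated early gene, had a log2 change of -1.67 ± 0.15 (adjusted p = 0.0111), and Smoc2, a matrix calcium binder, of -1.68 ± 0.16 (adjusted p = 0.015).

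Other genes outside the lists lay apart without passing the test. Rspo1, a secreted enhancer of WNT signalling, was at 0.641, 1.33 and 0.822 CPM in CON and 13.4, 15.9 and 6.58 in T.chuii (log2 change 3.61 ± 1.03). Adig, an adipocyte gene that was not in the fat list, was at 0.261, 0.189 and 0.185 CPM in CON against 17.2, 3.23 and 0.511 in T.chuii, and Cyp2e1, a cytochrome P450 of liver and fat, at 2.04, 1.31 and 1.39 CPM in CON against 130.4, 31.8 and 4.07 in T.chuii. Alternatives within the 6-library limma-voom fit, chosen after seeing the data, called Rspo1 and Cyp2e1. Adjusted p was 0.0467 for Rspo1 with library totals. Without T.chuii 3 it was 0.0157 for Rspo1 and 0.0423 for Cyp2e1. Among genes with lower means, Serpinb2, an inhibitor of plasminogen activators, was at 3.77, 3.48 and 2.35 CPM in CON against 1.86, 0.851 and 1.36 in T.chuii (-1.26 ± 0.69). Lamb3, a chain of the epithelial basement membrane protein laminin 332, was at 11.2, 23.4 and 9.76 CPM in CON against 9.08, 5.11 and 4.44 in T.chuii (-1.23 ± 0.46), and Lif, a cytokine of injured retina and epithelium, at 1.42, 1.22 and 0.923 CPM in CON against 0.699, 0.655 and 0.378 in T.chuii (-1.06 ± 0.45).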
